A study of Homo sapiens with 12 samples.

Results

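Messenger RNAs of 9 well-known target genes of the transcription factor p53 were followed in a human melanoma line with and without extra miR-211. The genes were taken as a named list and matched by GENCODE 44 symbol to 9 of the 60675 gene rows that the deposited count tables share. A375/211 cells overexpress MIR211, which encodes the microRNA miR-211. They were compared with their parent A375, a melanoma line that carries activated BRAF. Neither the promoter that drives MIR211 nor whether A375/211 is 1 clone or a pool is given in the labels. Both lines grew in the same melanoma culture medium. Only these lines were compared, so an effect of miR-211 and any other difference between them cannot be told apart.

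RNA was measured in 2 ways. In BRIC-seq, cells took up 5-bromouridine (BrU) for 24 h, the label was then chased, and labelled RNA was pulled down with an antibody at 0, 1, 3 and 6 h, with 1 library per line and time. In RNA-seq, total RNA was sequenced in 2 libraries per line, a and b. Whether libraries of 1 line stem from separate cultures is not stated, so the spread behind each RNA-seq p-value may be technical. In BRIC-seq no time was repeated within a line, so its p-values measure no replicate spread. For line differences they rest on how the difference varied over the times, and for slopes on departures from a straight line.

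The BRIC-seq libraries held 2783520 to 6663297 counts in A375/211 and 2671651 to 7279038 in A375, and the RNA-seq libraries held 30528273 to 34130525 counts in A375/211 and 20847481 to 28372099 in A375. The MIR211 gene had 9, 11, 2 and 3 counts at 0, 1, 3 and 6 h and 36 and 18 counts in RNA-seq of A375/211, against 0 in all A375 libraries. The share of the mitochondrial rRNA MT-RNR2 in labelled RNA grew over the chase, to 26.4% in A375/211 and 26.9% in A375 at 6 h. Melanocyte markers were present: 6 of 6 were detected in total RNA of both lines, with summed levels of 287 to 323 CPM (counts scaled to a common library size) in A375/211 and 455 to 457 CPM in A375. In labelled RNA, 5 of 6 were detected, with TYR, the tyrosinase gene, at 0 in both lines. Among markers of other cells, KRT5, KRT1, PTPRC, CD3E and CDH5 had no count in any library.

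The protein p53 is a sequence-specific transcription factor that cells stabilize after DNA damage and other stress. It binds paired copies of a short motif near its target genes, whose products arrest the cell cycle, repair DNA, restrain growth signalling or promote cell death. One of these products, MDM2, marks p53 for destruction and closes a feedback loop.

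The 9 genes fall into 4 roles, and positions are given for hg38 in GENCODE 44. MDM2 (chr12:68808177-68845544, plus strand) encodes the ubiquitin ligase that degrades p53. Cell-cycle arrest is represented by CDKN1A (chr6:36676460-36687337, plus strand), whose product p21 inhibits cyclin-dependent kinases. Stress metabolism and repair are represented by RRM2B, a ribonucleotide reductase subunit that supplies nucleotides for repair, TP53I3 (chr2:24077433-24085861, minus strand), a quinone oxidoreductase, and SESN1 (chr6:108984309-109094846, minus strand), a sestrin that restrains mTORC1. Signalling and death are represented by GDF15 (chr19:18374731-18389176, plus strand), a secreted stress cytokine, PHLDA3 (chr1:201464278-201469237, minus strand), an inhibitor of AKT, FAS (chr10:88953813-89029605, plus strand), a death receptor, and ZMAT3 (chr3:178960121-179072215, minus strand), an RNA-binding protein that acts in splicing and mRNA turnover. All but RRM2B and ZMAT3 overlap another annotated gene. MDM2 overlaps the carboxypeptidase M gene, FAS overlaps ACTA2 and TP53I3 overlaps FAM228B, all on the opposite strand, so reads in shared stretches are uncertain because the strand setting of the counting is not given in the sources used here. FAS also overlaps the protein-coding gene STAMBPL1 on the same strand, where a strand setting could not separate the reads.

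The binding motif of p53 near the gene starts is shown first, since the members were listed as p53 targets. RefSeq start windows (GRCh38.p14, from 250 bases before to 50 after a start) were matched for 7 of 9 members, PHLDA3 and RRM2B being named only. The search was for a 20-base pair of p53 motifs without spacer, on both strands, with the C and G of each core CNNG fixed and at most 3 mismatches to the consensus elsewhere. That allowance was chosen with the members' windows in view. MDM2, GDF15, SESN1 and FAS held a match, in 5 of 15 member windows (windows of 1 gene can overlap), against 1.12% of all 35116 windows. In these sequences the capitals mark the CNNG cores.
MDM2: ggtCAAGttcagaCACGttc
GDF15: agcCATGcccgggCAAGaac
SESN1: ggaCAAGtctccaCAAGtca
FAS: ggaCAAGccctgaCAAGcca
The MDM2 match has 2 mismatches and lies at chr12:68808923-68808942 on the plus strand, 94 bases before a start. The FAS match has 2 mismatches and lies at chr10:88991309-88991328 on the plus strand, 122 bases before a start. The SESN1 match has 3 mismatches and lies at chr6:109009018-109009037 on the minus strand, 49 bases before a start. The GDF15 match has 3 mismatches and lies at chr19:18386186-18386205 on the plus strand, 28 bases after a start. A match describes letters, not occupancy, and a window without one says nothing about binding elsewhere.

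The 250 bases before this MDM2 start (chr12:68808767-68809016, plus strand, GRCh38.p14) are shown because MDM2 is the feedback gene and the start it uses under p53 lies inside the gene. The capitals mark the 20-base match.
MDM2 promoter: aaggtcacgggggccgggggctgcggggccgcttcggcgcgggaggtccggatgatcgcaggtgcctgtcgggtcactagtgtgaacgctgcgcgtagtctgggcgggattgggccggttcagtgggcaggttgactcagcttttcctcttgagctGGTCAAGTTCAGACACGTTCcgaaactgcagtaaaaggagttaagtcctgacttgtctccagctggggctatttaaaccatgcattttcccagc

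The mature form of the miRNA overexpressed in A375/211, which these libraries do not measure, is miR-211-5p, encoded at chr15:31065095-31065116 on the minus strand (RefSeq, GRCh38.p14). Capitals mark its seed, bases 2 to 8.
miR-211-5p: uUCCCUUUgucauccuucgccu
The 7-base match to this seed, AAAGGGA, occurred in the 3′ UTR of 3 of 9 members (MANE Select transcripts, GENCODE 44), against 17.5% of 18780 transcripts. Each of MDM2, RRM2B and ZMAT3 had 1 match. Member 3′ UTRs were 146 to 7794 bases long, against a median of 1088 bases, and a longer UTR holds more matches by length alone. The MDM2 and ZMAT3 matches are shown with the seed match in capitals.
MDM2 seed match: caataaatggccAAAGGGAt
ZMAT3 seed match: ttgaacagggagAAAGGGAg

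In labelled RNA, most of the 9 genes were lower in A375/211. GDF15, TP53I3, RRM2B, SESN1, MDM2 and PHLDA3 fell, by between 1.04 and 6.20 on the log2 scale with the chase times matched, and lay lower in A375/211 at each of the 4 times, as did 25.3% of all 13703 genes tested. CDKN1A, ZMAT3 and FAS were not called. That is 6 of 9 members called lower, where 12.3% of all 13703 genes tested were called lower and 25.9% were called in either direction (edgeR quasi-likelihood test, adjusted p under 0.05). The members were chosen with earlier results of these data known, so this contrast is a description and not independent support. DESeq2 also called 6 members, with 27.5% of all genes called. The median member differed by -1.17, against -0.05 over all genes tested. In bulk RNA, fewer cells expressing a gene and less RNA per cell cannot be told apart.

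MDM2, the feedback ligase of p53, was lower at each chase time. It had 455, 547, 388 and 89.7 CPM in A375/211 at 0, 1, 3 and 6 h, against 1040.1, 1015.5, 684 and 319 CPM in A375. Its CPM was lowest at 6 h in both lines, and the ratio of A375/211 to A375 was lowest at 6 h, at 0.281 (95% interval 0.250 to 0.315, counting error only), against 0.437 (0.412 to 0.464) at 0 h. The fitted difference was -1.17 ± 0.17 on the log2 scale (SE, edgeR adjusted p = 0.00504).

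RRM2B (chr8:102204502-102238961, minus strand) had 66.6, 74.0, 107 and 49.7 CPM in A375/211, against 144, 186, 232 and 211 CPM in A375. Every A375 library was higher than every A375/211 library. The difference was -1.40 ± 0.18 (SE, edgeR adjusted p = 0.00309). TP53I3 had 8.70, 5.55, 9.83 and 13.2 CPM in A375/211, against 35.9, 31.5, 39.0 and 74.7 CPM in A375. Again the ranges of the lines were apart, and the ratio lay between 0.176 and 0.252 at the 4 times. The difference was -2.25 ± 0.15 (SE, edgeR adjusted p = 0.000364).

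GDF15 was near the detection floor in labelled RNA of A375/211, with 6, 7, 9 and 8 counts or 1.63, 1.39, 1.55 and 1.96 CPM at 0, 1, 3 and 6 h. In A375 it had 93.3, 8.03, 237 and 238 CPM. The A375 library of 1 h stood far below the other 3 of its line, yet above all A375/211 libraries. The difference was -6.20 ± 0.63 (SE, edgeR adjusted p = 0.00141), and it lay between -6.77 and -5.51 with any 1 library left out.

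SESN1 had 54.4, 43.4, 12.9 and 0.735 CPM in A375/211, the last from 3 counts, against 109, 83.3, 35.0 and 8.84 CPM in A375. Both lines lost the transcript over the chase, and A375/211 was lower at each time, with a ratio at 6 h of 0.0832 (95% interval 0.0165 to 0.259). PHLDA3 had 9.52, 8.13, 9.83 and 2.45 CPM in A375/211, against 23.6, 27.9, 13.9 and 2.81 CPM in A375. At 6 h the PHLDA3 ratio was 0.871 with an interval of 0.346 to 2.11, so no difference was detectable at that depth. The differences were -1.35 ± 0.30 for SESN1 (edgeR adjusted p = 0.0224) and -1.04 ± 0.29 for PHLDA3 (edgeR adjusted p = 0.0419). These calls were the least secure of the 6: both were lost without the 0, 1 or 3 h library of either line (adjusted p of 0.0528 to 0.102 for SESN1 and 0.064 to 0.157 for PHLDA3) and without the count filter (0.0533 and 0.08).

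CDKN1A, FAS and ZMAT3 did not pass the test between the lines. CDKN1A had 153, 175, 222 and 117 CPM in A375/211, against 163, 196, 201 and 76.1 CPM in A375, lower at 0 and 1 h and higher at 3 and 6 h. Its fitted difference was 0.12 ± 0.14 (SE, edgeR adjusted p = 0.565). FAS had 22.8, 36.1, 26.0 and 10.3 CPM in A375/211, against 22.4, 28.3, 22.1 and 3.62 CPM in A375. The FAS value of A375/211 was the higher one at 4 of 4 times, but only the ratios at 1 h, 1.27 (1.01 to 1.60), and 6 h, 2.85 (1.60 to 5.25), had counting intervals above 1, and the fit gave 0.44 ± 0.24 (SE, edgeR adjusted p = 0.215). ZMAT3 had 154, 76.5, 219 and 59.5 CPM in A375/211, against 107, 256, 158 and 122 CPM in A375. The lines changed places from time to time, and the fit gave -0.43 ± 0.41 (SE, edgeR adjusted p = 0.482). With glycolytic mRNAs held constant, under which the median of all genes is -0.49 and not -0.05, the CDKN1A value became -0.32 and FAS came to lie at -0.0014, while the same 6 members stayed called.

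**Figure D1:**
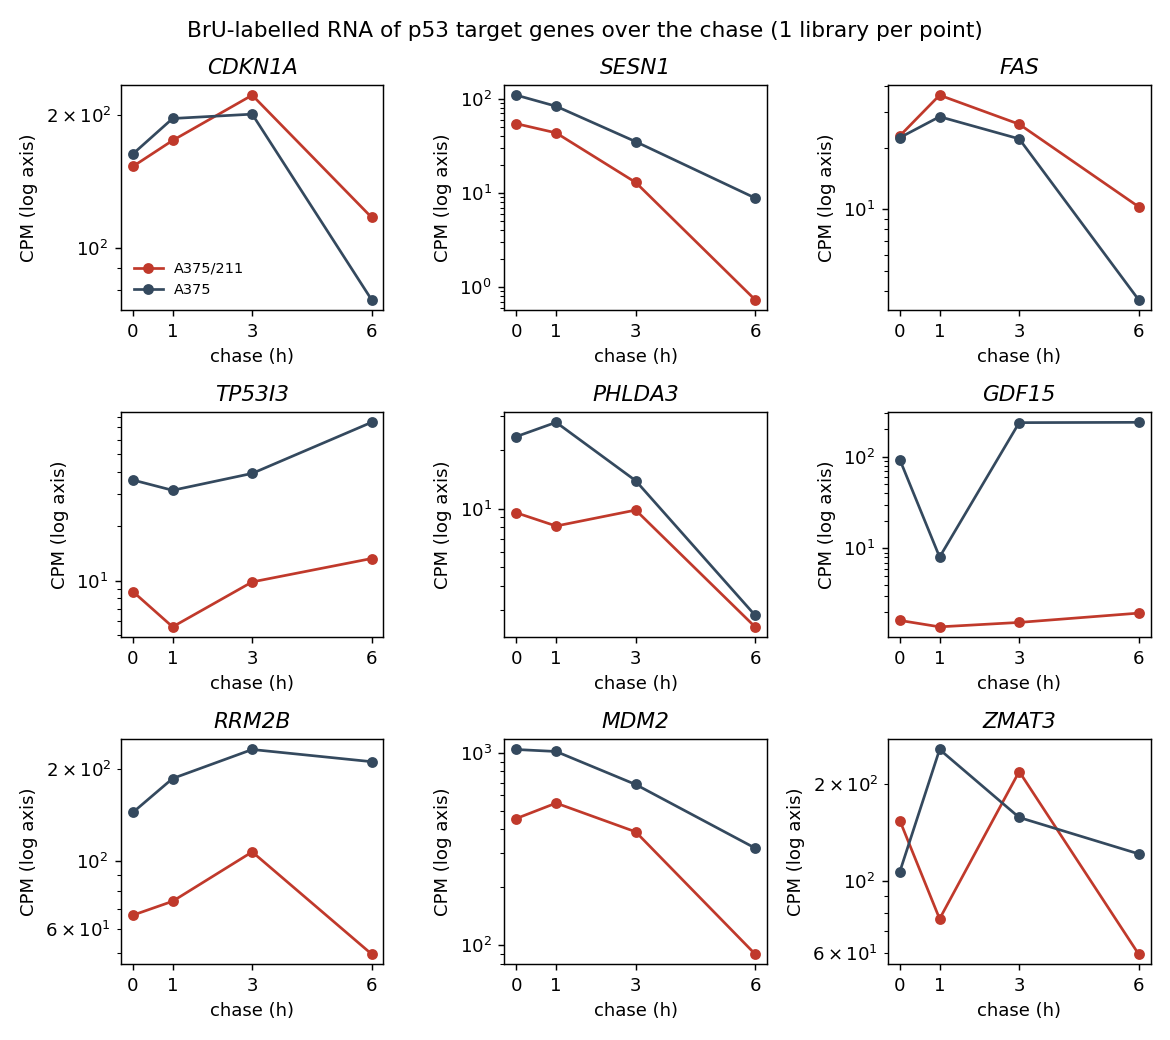
Labelled RNA of the 9 p53 target genes over the BRIC-seq chase in A375/211 and A375, in CPM on TMM-scaled libraries (log axis) against hours of chase, with 1 library per point. GDF15, TP53I3 and RRM2B run well apart between the lines, MDM2 and SESN1 decline in both lines, and the CDKN1A and ZMAT3 lines cross.

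MDM4, the partner of MDM2 that blocks p53, had 153, 101, 23.4 and 32.3 CPM of labelled RNA in A375/211, against 196, 63.6, 78.4 and 46.2 CPM in A375, and its difference of -0.47 ± 0.36 did not pass (edgeR adjusted p = 0.374).

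Several marker lists of other cell types moved with the line in labelled RNA. The 5 fibroblast markers summed to 26.9 to 149 CPM in A375/211 and 2.33 to 14.5 CPM in A375, with 4 detected in each line, COL1A2 at 0 in A375/211 and DCN at 0 in A375. The 4 leukocyte markers summed to 18.6 to 153 CPM in A375/211 and 3.24 to 21.3 CPM in A375, with PTPRC and CD3E at 0 in both. The 4 endothelial markers summed to 27.5 to 46.7 CPM in A375/211 and 1.06 to 4.12 CPM in A375, with VWF and CDH5 at 0 in both. The 4 keratinocyte markers summed to at most 2.7 CPM in A375/211 and 4.12 CPM in A375, with KRT10 alone detected. In total RNA the fibroblast sums were 25.8 to 26.9 CPM in A375/211 and 26.1 to 61.3 CPM in A375, and the leukocyte sums were 9.83 to 17 CPM in A375/211 and 21.6 to 25.5 CPM in A375, so neither was higher in A375/211 there. The endothelial sums in total RNA were 6.04 to 9.19 CPM in A375/211 and 3.58 to 4.18 CPM in A375, and the keratinocyte sums were 16.8 to 18.3 CPM in A375/211 and 15.2 to 20.4 CPM in A375. Their part in the labelled-RNA differences was not tested.

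Total RNA gave a different picture of the same lines. The 2 libraries of A375/211 lay above both A375 libraries for CDKN1A, SESN1 and FAS and below both for GDF15 and PHLDA3, and the lines overlapped for MDM2, RRM2B, TP53I3 and ZMAT3. The lines did not overlap for 41% of all 19258 genes tested, so the 5 of 9 members that were apart lay near that background. With 2 libraries per line, 0 of 9 members passed the adjusted threshold in the edgeR quasi-likelihood test, which called 73 of 19258 genes (0.379%). At an unadjusted p under 0.05, 5 of 9 members passed, where 10.9% of all genes did. DESeq2, the tool the study used, called 3 members, CDKN1A higher and GDF15 and PHLDA3 lower, where 3.88% of all genes were called. The median member differed by 0.31 and 6 of 9 were positive, against a median of -0.0035 over all genes.

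CDKN1A had 229 and 251 CPM in A375/211, against 117 and 82.8 CPM in A375. Both A375/211 libraries lay above both A375 libraries, with a difference of 1.26 ± 0.23 (SE, edgeR adjusted p = 0.127, DESeq2 adjusted p = 0.000275). GDF15 had 12.4 and 9.48 CPM in A375/211, against 273 and 120 CPM in A375. It was low in both A375/211 libraries, and its 2 A375 libraries differed from each other by more than any value in A375/211. The GDF15 difference was -4.16 ± 0.49 (SE, edgeR adjusted p = 0.0617, DESeq2 adjusted p = 7.8e-19), and edgeR called it without the count filter (adjusted p = 0.0238) and with the library letter as a replicate block (-4.06, adjusted p = 0.034). PHLDA3 had 44.9 and 44.8 CPM in A375/211, against 115 and 93.9 CPM in A375. Its lines were well separated, with a difference of -1.22 ± 0.18 (SE, edgeR adjusted p = 0.0924, DESeq2 adjusted p = 2.77e-05).

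SESN1 had 18.0 and 24.8 CPM in A375/211, against 12.4 and 10.9 CPM in A375, a difference of 0.88 ± 0.24 (SE, edgeR adjusted p = 0.272, DESeq2 adjusted p = 0.112). FAS had 11.8 and 13.4 CPM in A375/211, against 8.11 and 5.71 CPM in A375, a difference of 0.87 ± 0.26 (SE, edgeR adjusted p = 0.327, DESeq2 adjusted p = 0.207). For both genes the lines did not overlap, yet neither tool called them.

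MDM2 had 87.9 and 63.4 CPM in A375/211, against 77.4 and 44.7 CPM in A375, a difference of 0.31 ± 0.33 (SE, edgeR adjusted p = 0.848). RRM2B had 58.2 and 63.2 CPM in A375/211, against 64.6 and 41.4 CPM in A375, a difference of 0.20 ± 0.26 (SE, edgeR adjusted p = 0.887). For both, library b of A375 was the low one, and without it the differences were -0.03 and -0.09. TP53I3 had 18.1 and 17.0 CPM in A375/211, against 25.7 and 17.2 CPM in A375 (difference -0.29 ± 0.25, SE, edgeR adjusted p = 0.794), and without library a of A375 the difference was 0.02. ZMAT3 had 21.1 and 28.5 CPM in A375/211, against 23.3 and 8.07 CPM in A375 (difference 0.67 ± 0.53, SE, edgeR adjusted p = 0.766). MDM4 overlapped between the lines as well. It had 63.6 and 67.5 CPM in A375/211, against 96.9 and 40.6 CPM in A375 (difference -0.07 ± 0.43, SE, edgeR adjusted p = 0.981).

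**Figure D2:**
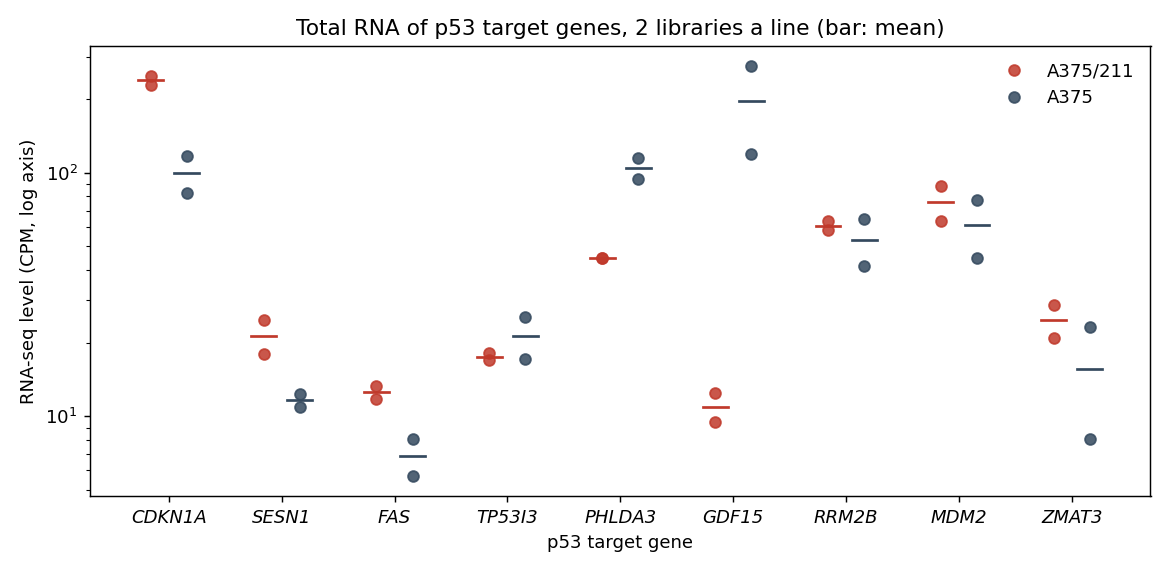
Total RNA of the 9 p53 target genes by RNA-seq, in CPM on TMM-scaled libraries (log axis), with each of the 2 libraries per line as a point and the mean as a bar, A375/211 left of A375. The points of the lines are apart for CDKN1A, GDF15, PHLDA3, SESN1 and FAS and overlap for MDM2, RRM2B, TP53I3 and ZMAT3.

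The assays were set against each other directly, since the question is whether labelled and total RNA of a gene differ in the same way between the lines. Of the 9 members, 5 had the same sign in both assays (CDKN1A, GDF15, TP53I3, PHLDA3 and FAS) and 4 did not (MDM2, RRM2B, SESN1 and ZMAT3, each negative in labelled and positive in total RNA). Over the 12677 genes tested in both, 57.8% had the same sign. Across the 9 members Pearson's r was 0.916 and Spearman's rho 0.667, and 0.555 and 0.524 without GDF15, against 0.408 and 0.245 over all genes. Genes are not independent replicates, the points share their libraries, and these values are descriptions.

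A joint fit over the 12 libraries tested, per gene, whether the line difference of labelled RNA differed from that of total RNA. RRM2B, TP53I3 and SESN1 passed, each lower in A375/211 in labelled RNA relative to total RNA. That is 3 of 9 members, where 4.59% of all 14285 genes were called and 1.87% were called in this direction (edgeR). SESN1 had line differences of -1.35 in labelled RNA and 0.88 in total RNA, and the tested difference was -2.21 ± 0.47 (SE, edgeR adjusted p = 0.0362). TP53I3 had -2.25 in labelled RNA and -0.29 in total RNA, a tested difference of -1.95 ± 0.30 (SE, edgeR adjusted p = 0.00982). RRM2B had -1.40 in labelled RNA and 0.20 in total RNA, a tested difference of -1.58 ± 0.33 (SE, edgeR adjusted p = 0.0354). TP53I3 was called with any 1 of the 12 libraries left out. RRM2B was lost in 9 of these 12 fits (adjusted p of 0.0555 to 0.123), all but those without the 6 h library of either line or library a of A375. SESN1 was lost in 10 of 12 (0.058 to 0.139), all but those without a 6 h library.

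The remaining members did not pass. MDM2 was at -1.47 ± 0.39 (SE, edgeR adjusted p = 0.0744), CDKN1A at -1.11 ± 0.27 (0.0538), GDF15 at -2.01 ± 0.89 (0.25), ZMAT3 at -1.08 ± 0.75 (0.474), FAS at -0.39 ± 0.39 (0.641) and PHLDA3 at 0.20 ± 0.38 (0.839). CDKN1A was called under total-count scaling (-1.27, edgeR adjusted p = 0.0311) and without the 6 h library of either line or library a of A375 (adjusted p of 0.0377 to 0.0471). In all, 8 of 9 members were negative, with a median of -1.47 against -0.02 over all genes. With the 0 h libraries alone as labelled RNA, no gene of any kind was called, and RRM2B, TP53I3 and SESN1 lay at -1.26, -1.71 and -1.83.

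**Figure D3:**
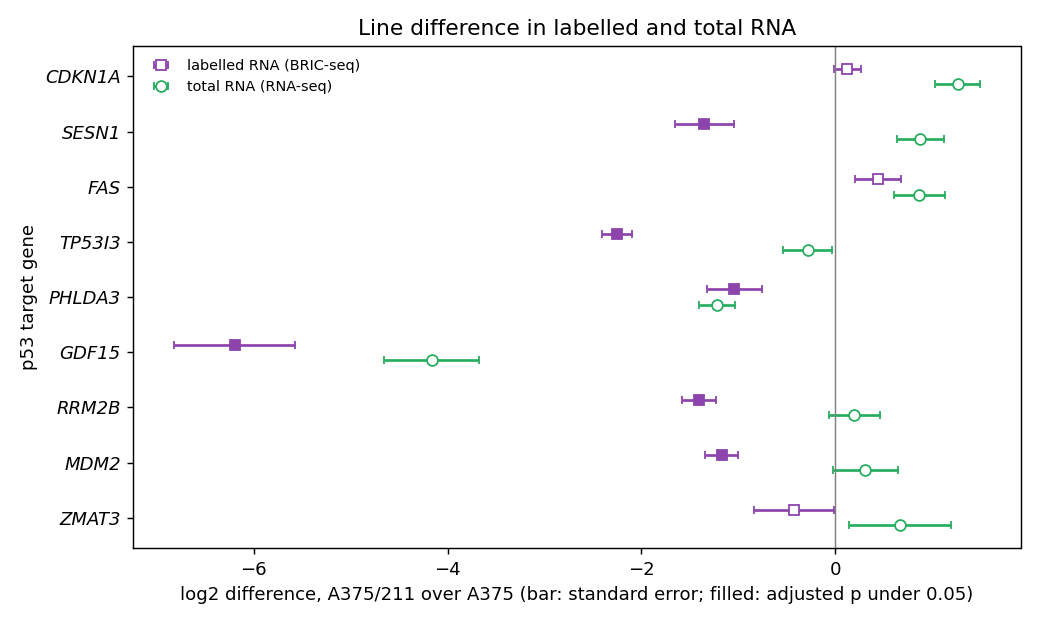
Line differences of the 9 members, A375/211 over A375, as log2 values with SE bars from the edgeR fits, in labelled RNA (BRIC-seq) and total RNA (RNA-seq). MDM2, RRM2B, SESN1 and ZMAT3 lie on opposite sides of 0 in the 2 assays, GDF15, TP53I3 and PHLDA3 are negative in both, and CDKN1A and FAS are positive in both.

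Slopes over the chase differed among the members. Slopes are given in log2 per hour on TMM-scaled libraries. A negative slope means faster loss than the reference set by that scaling, and a positive one slower loss. This reference is not the total of labelled RNA. The median mean slope of all genes was -0.04 under TMM scaling and -0.20 under total counts. No slope is an absolute decay rate. Over both lines, MDM2, PHLDA3, SESN1 and FAS had negative slopes that passed the test and TP53I3 a positive one. That is 5 of 9 members (55.6%), no larger a share than the 64.3% of all 13703 genes that passed (34.4% negative and 29.9% positive, edgeR).

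SESN1 was the member lost fastest, with a mean slope of -0.73 ± 0.08 per hour (SE, edgeR adjusted p = 0.00012), at percentile 1.74 of all genes tested. At 6 h, 1.35% of its 0 h CPM was left in A375/211 and 8.09% in A375. PHLDA3 followed at -0.41 ± 0.10 (SE, edgeR adjusted p = 0.00521), then MDM2 at -0.35 ± 0.06 (adjusted p = 0.000962) and FAS at -0.32 ± 0.10 (adjusted p = 0.0159). MDM2 CPM at 6 h was 19.7% of that at 0 h in A375/211 and 30.7% in A375. The PHLDA3 and FAS calls were lost without the 6 h library of A375 (adjusted p = 0.052 and 0.109), and the FAS call also without that of A375/211 (0.0727).

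CDKN1A (-0.12 ± 0.06, SE, edgeR adjusted p = 0.117), ZMAT3 (-0.10 ± 0.10, adjusted p = 0.397) and RRM2B (0.02 ± 0.06, adjusted p = 0.789) were not called on TMM-scaled libraries. GDF15 had a slope of 0.28 ± 0.18 (SE, edgeR adjusted p = 0.185), which rests on A375 because A375/211 held fewer than 10 counts per library. TP53I3 was the only member called with a positive slope, at 0.17 ± 0.05 (SE, edgeR adjusted p = 0.00931). That call depended on the scaling: under total counts, where the median of all genes is -0.20 and not -0.04, its slope was 0.0065 (adjusted p = 0.914), and with glycolytic mRNAs held constant, where the median is -0.50, it was -0.28 (adjusted p = 0.000333). It was also lost without the 6 h library of A375 (adjusted p = 0.1). SESN1, PHLDA3, MDM2 and FAS stayed negative and called under both of these scalings. CDKN1A (-0.29, edgeR adjusted p = 0.00581) and ZMAT3 (-0.27, adjusted p = 0.0499) were called as well under total counts. With glycolytic mRNAs held constant, CDKN1A (-0.58, edgeR adjusted p = 0.000188), ZMAT3 (-0.57, adjusted p = 0.00208) and RRM2B (-0.44, adjusted p = 0.000544) were called too. RRM2B was called at 0.13 without the 6 h library of A375/211 (adjusted p = 0.0328). By comparison, MDM4 had a mean slope of -0.34 ± 0.08 (SE, edgeR adjusted p = 0.00702).

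Within A375/211, 2 of 9 members passed, where 42.9% of genes did (edgeR). They were SESN1 at -0.95 ± 0.10 (SE, edgeR adjusted p = 0.00101) and MDM2 at -0.41 ± 0.09 (adjusted p = 0.00972). Within A375, 5 of 9 passed, where 47.2% of genes did. They were SESN1 at -0.61 ± 0.08 (SE, edgeR adjusted p = 0.00206), PHLDA3 at -0.53 ± 0.12 (0.0124), FAS at -0.43 ± 0.14 (0.0421), MDM2 at -0.30 ± 0.08 (0.0192) and TP53I3 at 0.19 ± 0.06 (0.0408). The 6 h libraries carried these fits: without its own 6 h library no gene of any kind was called in either line, and SESN1 then lay at -0.74 in A375/211 and -0.54 in A375. Of the A375 calls, FAS was also lost without the 1 or 3 h library of A375/211 (adjusted p = 0.066 and 0.0527) or the 1 h library of A375 (0.106), and MDM2 and TP53I3 without the 0 h (0.0506 and 0.0597) or 1 h (0.058 and 0.114) library of A375.

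The slopes were not shown to differ between the lines. No member and no gene of 13703 passed in edgeR (0%), 1 member and 527 genes (3.85%) had an unadjusted p under 0.05, and DESeq2 called 14 genes (0.102%), none a member. The member with the unadjusted p under 0.05 was SESN1, whose slope in A375/211 minus that in A375 was -0.34 ± 0.13 per hour (edgeR adjusted p = 1). The 6 h library of A375/211 held 3 SESN1 counts, and with 1 library left out the SESN1 slope difference lay between -0.49 and -0.15. The slope differences of the other 8 members lay between -0.30 for GDF15 and 0.26 for PHLDA3.

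**Figure D4:**
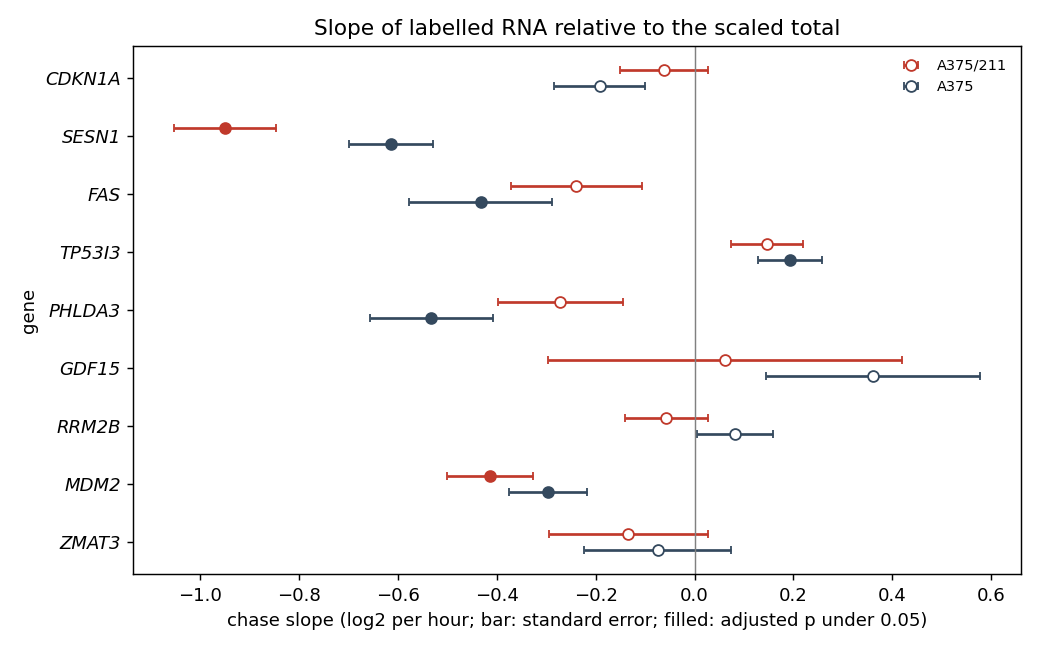
Chase slopes of the 9 members in A375/211 and A375, in log2 per hour on TMM-scaled libraries, with SE bars from the edgeR fit. SESN1 has the lowest slope in both lines, -0.95 in A375/211 and -0.61 in A375, MDM2, PHLDA3 and FAS are negative in both, and TP53I3 and GDF15 are positive in both.

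The order of the members by level was compared per kilobase of exon, on CPM per kilobase of total RNA. In A375/211, CDKN1A was first at 80.0 ± 5.17 (SD, n = 2), followed by PHLDA3 at 13.8, RRM2B at 11.3, MDM2 at 9.11, TP53I3 at 7.60, GDF15 at 5.25, SESN1 at 2.94, ZMAT3 at 2.19 and FAS at 0.429. The values of MDM2 and TP53I3 and those of SESN1 and ZMAT3 overlapped. In A375, GDF15 was first at 94.2, then CDKN1A at 33.3, PHLDA3 at 32.3, RRM2B at 9.83, TP53I3 at 9.27, MDM2 at 7.35, SESN1 at 1.60, ZMAT3 at 1.39 and FAS at 0.236. There the neighbours CDKN1A and PHLDA3, RRM2B and TP53I3, TP53I3 and MDM2, and SESN1 and ZMAT3 overlapped. On this scale GDF15 held rank 6 in A375/211 and rank 1 in A375, while SESN1, ZMAT3 and FAS came last in both. The annotated exons of FAS span 29313 bases, against 2087 to 11298 for the other members, so its value per kilobase depends on that length. Divided by its longest transcript of 16484 bases, FAS also held rank 9 in both lines.

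Labelled RNA of 0 h over total RNA, set as a log2 ratio of CPM across tables that were scaled separately, ranked the members in another way. MDM2 stood at percentile 96.6 of 12677 genes in A375/211 and 99.2 in A375, and ZMAT3 at 96.6 in A375/211 and 96.3 in A375. SESN1 stood at percentile 87 in A375/211 and 97.7 in A375, FAS at 78.9 in A375/211 and 88.7 in A375, and RRM2B at 62.5 in A375/211 and 86.4 in A375. MDM2, ZMAT3, SESN1 and FAS were thus well represented in labelled RNA in both lines. They are also the members with the longest annotated exons, 7276 to 29313 bases in all, against 2087 to 5391 for the others. The part of transcript length in this ranking was not tested. At the other end, PHLDA3 stood at percentile 17.2 in A375/211 and 18.4 in A375, and GDF15 at 14.4 in A375/211 and 34.7 in A375. CDKN1A (43.3 in A375/211 and 74.6 in A375) and TP53I3 (36.2 in A375/211 and 75.3 in A375) lay in between.

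Patterns over the 12 libraries, each table centred on its own mean, were compared by Pearson's r of log2 CPM with 11249 genes as a description. The members closest to each other were MDM2 and SESN1 (r = 0.938), GDF15 and TP53I3 (0.854) and CDKN1A and FAS (0.845). The 2 protein-coding genes most like each member were TRIM24 (0.970) and RHOU (0.967) for MDM2, KIAA1328 (0.989) and STON2 (0.978) for SESN1, NRCAM (0.968) and STMN3 (0.963) for TP53I3, and AGAP2 (0.965) and POLR3A (0.946) for RRM2B. For GDF15 they were LEF1 (0.945) and DNAH2 (0.926), for PHLDA3 MRPS30 (0.965) and CUL5 (0.952), for FAS HYCC1 (0.968) and DYNLL2 (0.959), for CDKN1A GPR161 (0.905) and NIPA1 (0.890), and for ZMAT3 AP3S2 (0.866) and KLHL23 (0.830). The points share their libraries and depth.

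A further 50 p53 target genes were counted beside the members. They too were listed with earlier results of these data known. In labelled RNA, 44 were tested. Of all 13703 genes tested, 25.9% were called in either direction and 12.3% were called lower (edgeR). Among the 44, 3 were called higher and 15 lower in A375/211 (40.9% in all), with a median of -0.47 against -0.05 over all genes. The 4 with the smallest p were PERP, a desmosomal membrane protein (0.78 ± 0.08, SE, edgeR adjusted p = 0.00141), PCNA, the sliding clamp of DNA replication (-1.67 ± 0.17, adjusted p = 0.0015), CYFIP2, a subunit of the actin-regulating WAVE complex (-0.63 ± 0.07, adjusted p = 0.00163), and CMBL, a hydrolase (-0.96 ± 0.12, adjusted p = 0.00279). PERP had 77.8, 95.6, 183 and 353 CPM in A375/211 at 0, 1, 3 and 6 h, against 42.7, 55.6, 105 and 223 CPM in A375. PCNA had 34.3, 34.1, 41.2 and 25.2 CPM in A375/211, against 72.7, 106, 152 and 105 CPM in A375. PERP was thus higher and PCNA lower in A375/211 at each time.

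In total RNA, 47 of the 50 were tested and 34 were positive, with a median of 0.34 against -0.0035 over all genes. None was called by edgeR (0 of 47), which called 0.379% of all genes. At an unadjusted edgeR p under 0.05, where 10.9% of all genes passed, 11 of 47 did. DESeq2, which called 3.88% of all genes, called 3 of the 47 higher and 1 lower. Among those with the smallest p were TRIM22, an interferon-inducible factor (1.46 ± 0.30, SE, edgeR adjusted p = 0.164), CYFIP2 (0.79 ± 0.16, adjusted p = 0.167) and DRAM1, an inducer of autophagy (1.49 ± 0.32, adjusted p = 0.18).

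In the joint fit, 1 of 47 was called higher and 4 lower in labelled relative to total RNA (10.6%). Of all 14285 genes, 4.59% were called and 1.87% were called lower. Only 8 of the 47 were positive, with a median of -0.83 against -0.02 over all genes. A shift to negative values was thus not particular to the 9 members. Those called included CYFIP2 (-1.38 ± 0.16, SE, edgeR adjusted p = 0.00303), SERTAD1, a cell-cycle cofactor (-4.33 ± 0.56, adjusted p = 0.00524), PERP (1.27 ± 0.25, adjusted p = 0.0265) and FDXR, a mitochondrial ferredoxin reductase (-1.44 ± 0.33, adjusted p = 0.0447). SERTAD1 had 3, 4, 0 and 0 counts of labelled RNA in A375/211, against 27, 35, 18 and 10 in A375. In mean chase slope, 64.3% of all genes were called, 29.9% as positive and 34.4% as negative. Of the 44 tested here, 11 were called positive and 22 negative (75% in all), led by CYFIP2 (0.37), PERP (0.39), PLXNB2, a semaphorin receptor (0.43), and PANK1, an enzyme of coenzyme A synthesis (-0.63). No slope difference between the lines was called among the 44 in edgeR or DESeq2. An unadjusted edgeR p under 0.05 was found for 4 of 44 (CES2, GADD45A, STEAP3 and TRIAP1) and for 3.85% of all genes.

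Genes that act on p53 were counted in the same way, 18 in all with MDM4 among them. In labelled RNA, 15 were tested, with 2 called higher and 3 lower in A375/211 (33.3% in all, edgeR). That lay near the background, since 25.9% of all genes were called and 12.3% were called lower. Of the 15, 3 were positive, with a median of -0.25 against -0.05 over all genes. HIPK2, a kinase that phosphorylates p53, was lower (-0.90 ± 0.07, SE, edgeR adjusted p = 0.000731), as was ATM, the kinase of the response to DNA breaks (-0.80 ± 0.07, adjusted p = 0.000941). The related kinase ATR was higher (0.39 ± 0.07, SE, edgeR adjusted p = 0.0119), as was the checkpoint kinase CHEK1 (0.66 ± 0.17, adjusted p = 0.0376). In total RNA, 0 of 17 were called by either tool and 1, HIPK2 (-0.73 ± 0.23, SE, edgeR adjusted p = 0.354), had an unadjusted p under 0.05, as did 10.9% of all genes. In mean chase slope, 46.7% of the 15 were called, against 64.3% of all genes. Of these regulators, 3 were called positive and 4 negative, among them the methyltransferase PRMT5 (0.27), the deacetylase SIRT1 (-0.57) and the acetyltransferase EP300 (-0.16). None of the regulators was called in the joint fit (0 of 17, and 0 at an unadjusted edgeR p under 0.05) or in slope difference (0 of 15, likewise 0, and 0 by DESeq2). In the joint fit 6 of the 17 were positive, with a median of -0.26 against -0.02 over all genes. A lean to negative values was thus seen among the regulators too, and it was smaller than among the targets.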

How the data were processed

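The authors deposited whole-number read counts per gene, not normalized, in 1 table for BRIC-seq and 1 for RNA-seq. HISAT2 2.1.0 and StringTie are named per the submitters' processing notes, and the series' design text names DESeq2. The notes give hg19 and the design text hg38, so coordinates come from GENCODE 44 or RefSeq, not from the tables. The sources used here give no strand setting and no rule for multi-mapping reads. A BRIC-seq row that names no gene (0.000108% to 0.00122% of a library) was left out.

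Counts were tested with edgeR 4.0.16 in R 4.3.3 (quasi-likelihood F test, TMM scaling, filterByExpr by line with a minimum count of 10 and a minimum total of 15, Benjamini-Hochberg adjustment over all genes tested, threshold 0.05). RNA-seq was fitted by line, BRIC-seq by line with time as a factor, and slopes on hours. In BRIC-seq, the 4 matched times stand in for replicates. SE is the size of the log2 value over the square root of F. CPM use TMM-scaled libraries, and pattern correlations use log2(CPM + 0.5). Intervals are exact conditional binomial at 95% and cover counting error only.

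The joint test of the assays scaled 12 libraries together and was added after seeing the data. All 9 members, MDM4 and, per other list and comparison, up to 4 genes with the smallest p are named, as are the 2 genes most like each member. Some genes that this rule takes are not reported here. The motif allowance was set after the windows were seen. Members and lists were chosen with earlier results of these data known. The fits were tested on simulated data. Alternatives were DESeq2 1.42.0, other scalings and filters, a replicate block, and each library left out. The letters a and b of the RNA-seq libraries are not stated to pair samples.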

Additional observations from a re-analysis of the deposited data

Results flagged for a closer look

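For 3 members the line difference in labelled RNA departed from that in total RNA in a direct test of that departure (edgeR joint fit over 12 libraries). SESN1 was lower in A375/211 in labelled relative to total RNA by a log2 difference of -2.21, TP53I3 by -1.95 and RRM2B by -1.58. TP53I3 kept its call with any 1 library left out and the others did not. Labelled RNA was also drawn from libraries of fewer counts than total RNA, and the part of depth in these departures was not tested.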

How the results depend on the processing

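Direction and call were recomputed under each alternative, of which 882 values were as reported within the set limits and 42 turned sign. RNA-seq called 748 genes and 3 members in DESeq2, 237 and 1 without the count filter, and 192 and 1 with the replicate block, against 73 and 0; with 1 library left out it called 0 to 15 genes and 0 members. The labels do not say that the letters pair libraries, and a correlation across lines of 0.31 over 2 pairs does not settle it; the block changed no call of another member. BRIC-seq called 6456 genes between lines with glycolytic mRNAs held constant and 1739 to 2863 with 1 library left out (4 to 6 members), against 3546.

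Mean slopes called 8 members with glycolytic mRNAs held constant and 2 to 5 with 1 library left out (7173 to 9015 genes). In A375/211, slopes called 4 members under total counts, 8 (10711 genes) with glycolytic mRNAs held constant, and 0 to 2 (0 to 5870 genes) with 1 library left out. In A375, they called 8 (10461 genes) with glycolytic mRNAs held constant, 2 without the count filter, and 0 to 5 (0 to 6770 genes) with 1 left out. Slope differences called 14 genes in DESeq2 and 1 without the count filter. The joint fit called 0 genes and 0 members with 0 h labelled libraries alone, where PHLDA3 lay at -0.036, and 255 to 768 genes and 1 to 4 members with 1 left out.

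With glycolytic mRNAs held constant, the line difference of labelled RNA turned sign for CDKN1A (-0.32) and FAS (-0.0014), mean slopes for GDF15 (-0.17), RRM2B (-0.44) and TP53I3 (-0.28), slopes in A375/211 for GDF15 (-0.39) and TP53I3 (-0.31), and slopes in A375 for GDF15 (-0.069), RRM2B (-0.38) and TP53I3 (-0.26). Total counts turned the RRM2B mean slope (-0.15), the A375/211 slopes of GDF15 (-0.12) and TP53I3 (-0.037) and the A375 slope of RRM2B (-0.070). By the longest transcript, the level of MDM2 ranked 5 and TP53I3 4 in A375/211, and RRM2B 5 and TP53I3 4 in A375.

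With 1 library left out, sign turned within these ranges. RNA-seq: MDM2 -0.030 to 0.75, RRM2B -0.086 to 0.55, TP53I3 -0.54 to 0.023. Labelled RNA between lines: CDKN1A -0.030 to 0.23, ZMAT3 -0.76 to 0.023. Mean slope: RRM2B -0.022 to 0.13, ZMAT3 -0.17 to 0.014. Slope in A375/211: CDKN1A -0.14 to 0.16, GDF15 -0.023 to 0.096, RRM2B -0.14 to 0.21, PHLDA3 -0.35 to 0.013, ZMAT3 -0.22 to 0.21. Slope in A375: CDKN1A -0.29 to 0.10, ZMAT3 -0.21 to 0.089. Slope difference: MDM2 -0.24 to 0.14, CDKN1A -0.16 to 0.32, RRM2B -0.28 to 0.11, TP53I3 -0.13 to 0.083, ZMAT3 -0.22 to 0.25, FAS -0.21 to 0.39. Joint fit: PHLDA3 -0.012 to 0.51. The causes were not tested.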
